A study of Homo sapiens with 36 samples.

Results

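The ATF4, CHOP and amino acid response was followed through 10 genes, found by name among the 21950 genes of the expression table. All 10 were present, and all 10 passed the filter on low values, a mean of at least 1 FPKM over the 36 libraries. They are the transcription factors ATF4, ATF3, ATF5, DDIT3 (which encodes CHOP) and CEBPB, the pseudokinase TRIB3, the amino acid enzymes ASNS, PSAT1 and PHGDH, and the mitochondrial enzyme PCK2. The samples were K562, an established human erythroleukemia line, grown in DMEM in 6-well plates inside incubators at 21%, 5% or 1% oxygen. Cells were collected after 6 h, 24 h, 3 d or 6 d, with 3 libraries for each of the 12 combinations. Cultures were passaged at 3 d. Oxygen level and incubator cannot be told apart, nor can time and passage between 3 d and 6 d. Nothing in the labels gives the replicates as independent cultures, so the p-values measure the spread between libraries, which may be technical.

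When amino acids run short, when unfolded protein collects in the endoplasmic reticulum, or when heme is lacking or mitochondria are disturbed, a kinase phosphorylates the translation factor eIF2α. General protein synthesis then slows, while translation of ATF4 mRNA rises, so that much of the control of ATF4 lies in translation and is not seen in its mRNA. ATF4 protein binds DNA with C/EBP partners and switches on genes of amino acid synthesis, uptake and tRNA charging, and also DDIT3, ATF3 and TRIB3. CHOP, the product of DDIT3, is tied to the outcome of prolonged stress. TRIB3 is a known CHOP target that restrains the pathway. K562 cells are of the erythroid lineage, where the heme-regulated eIF2α kinase EIF2AK1 is prominent.

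Promoter sequence is shown for 4 members, because ASNS and ATF3 share the ATF4 response motif in this window and moved in opposite directions at 3 d, and because DDIT3 and TRIB3 rose together without it. The sequences are the 250 bases before an annotated RefSeq start, on GRCh38.p14, read 5′ to 3′ on the strand of the gene. They were matched by gene symbol, and 10 of the 10 members had an entry. The build behind the expression files is not given in the sources used here. In the windows of ASNS (chr7:97872409-97872658, minus strand) and ATF3 (chr1:212565157-212565406, plus strand), capitals mark TGATGNAA, the core of the C/EBP-ATF response element. In those of DDIT3 (chr12:57520515-57520764, minus strand) and TRIB3 (chr20:381045-381294, plus strand), capitals mark GCGTG or its reverse complement CACGC, 1 form of the core bound by hypoxia-inducible factors.
ASNS: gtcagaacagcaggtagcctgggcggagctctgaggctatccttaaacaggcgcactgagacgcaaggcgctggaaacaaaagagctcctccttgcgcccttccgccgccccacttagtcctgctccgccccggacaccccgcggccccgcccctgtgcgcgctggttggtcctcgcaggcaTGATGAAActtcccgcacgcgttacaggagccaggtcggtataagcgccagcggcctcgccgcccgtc
ATF3: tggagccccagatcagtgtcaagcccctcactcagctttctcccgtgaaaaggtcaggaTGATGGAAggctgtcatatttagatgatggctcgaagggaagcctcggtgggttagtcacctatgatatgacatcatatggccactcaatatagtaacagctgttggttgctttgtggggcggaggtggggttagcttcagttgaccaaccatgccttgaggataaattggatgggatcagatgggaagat
DDIT3: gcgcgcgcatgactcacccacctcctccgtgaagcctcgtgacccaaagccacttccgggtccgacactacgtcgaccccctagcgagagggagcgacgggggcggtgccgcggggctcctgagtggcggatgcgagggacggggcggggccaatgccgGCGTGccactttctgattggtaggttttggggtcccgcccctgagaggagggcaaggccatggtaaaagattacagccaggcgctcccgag
TRIB3: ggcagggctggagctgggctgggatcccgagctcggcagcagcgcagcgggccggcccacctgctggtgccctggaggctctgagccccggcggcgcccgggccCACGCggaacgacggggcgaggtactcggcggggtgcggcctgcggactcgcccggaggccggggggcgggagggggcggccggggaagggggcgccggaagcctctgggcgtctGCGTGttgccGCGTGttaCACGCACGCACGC
Both strands were searched. TGATGNAA occurred in 3.14% of all 35116 windows of this length and, among the members, in 1 of 2 windows of ASNS and 1 of 2 windows of ATF3. GCGTG occurred in 32.2% of windows, and in 4 members, DDIT3, TRIB3, ASNS and CEBPB, with 6 matches in the TRIB3 window printed. The ASNS window printed also holds 1 such match, left in lower case. The other HIF core, ACGTG, occurred in 18.5% of windows and in the member ATF4 alone, where it lies inside a CACGTG E box, a motif of 6.34% of windows. The endoplasmic reticulum stress element (CCAAT and CCACG with any 9 bases between them) occurred in 0.074% of windows and in 0 of the 19 windows of the members. That search took exact matches only. The DDIT3 window printed holds CCAAT, 9 bases and CCACT, which differs from the element in its last base. The GCGTG marked in that window lies within those 9 bases. A match is a run of letters in this window and was not tested as a binding site. Sequence beyond the 250 bases was not searched, so the lack of a match is a statement on this window only. The windows were not tied to the transcripts measured.

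Expression is given as FPKM, fragments per kilobase of transcript and per 1000000 fragments, as normalized by the authors. The tables hold no counts, so depth is unknown. Total FPKM per library ran from 535152 to 1171415, and the highest total was replicate 3 of 21% oxygen at 24 h. Replicate 3 of 1% oxygen at 3 d stood apart: 7220 genes were above 0 in it, against 14512 to 19543 in the other 35 libraries. Of 3695 genes with a median over 20 FPKM, this shallow library had 429 at 0, and no other library more than 7. It was kept in the tests, and results of the members that rest on it are given with and without it. In comparisons that do not use its group, leaving it out changes the spread in the fit and not the difference. All 12 markers of K562 and erythroid cells averaged above 1 FPKM in every group. Differences are on the log2(FPKM + 1) scale with their standard error (SE), tested with limma across all 10625 genes that passed the filter, and a gene passed at a Benjamini-Hochberg adjusted p under 0.05. In bulk RNA, a change in the number of cells of a kind and a change in RNA per cell cannot be told apart.

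DDIT3, ATF3 and TRIB3 formed the part of the response that rose, and they rose late. In 5% oxygen all 3 were higher than in 21% at 3 d and again at 6 d. In 1% oxygen all 3 were higher at 3 d, and at 6 d DDIT3 still passed, as did ATF3 once the shallow library described above was left out. ASNS, PSAT1 and PHGDH, the amino acid enzymes, were lower than in 21% oxygen at 3 d, when the CHOP branch was higher. ATF4 mRNA was lower than in 21% at 24 h, by -0.41 in 1% and -0.39 in 5%, which depended on the scale. At 3 d and 6 d it passed in neither level with all libraries in. Without the shallow library it was higher at 3 d in 1% and at 6 d in both.

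DDIT3 encodes CHOP, a C/EBP family factor that rises when ATF4 stays active. At 3 d its level was 75.9, 78.9 and 79.0 FPKM in the libraries of 21% oxygen. In 5% oxygen it was 339, 371 and 419.8 FPKM. In 1% oxygen it was 467, 488 and 380 FPKM, the last being the shallow library. The 3 groups of libraries ranked 21% below both of the others with no overlap, and the highest library of 5% lay above the shallow library of 1%. Against 21%, the difference was 2.25 (SE 0.108, adjusted p = 4.51e-15), a 4.83-fold ratio of mean FPKM, in 5% oxygen. In 1% oxygen it was 2.49 (SE 0.108, adjusted p = 3.12e-16), a 5.71-fold ratio. The latter was 2.60 without the shallow library.

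After 6 d the 2 low-oxygen levels had parted for DDIT3. DDIT3 stood at 59.1, 58.9 and 55.2 FPKM in 21% oxygen. It stood at 261, 236 and 228 FPKM in 5% oxygen, so these 3 libraries remained far above the others. In 1% oxygen it stood at 88.2, 87.8 and 95.4 FPKM, above every library of 21% and below every library of 5%. The difference from 21% was 2.04 (SE 0.108, adjusted p = 3.92e-14) in 5% and 0.64 (SE 0.108, adjusted p = 0.000115) in 1%. Between the 2 low levels, 1% was lower than 5% by -1.40 (SE 0.108, adjusted p = 4.28e-10). At 3 d the same comparison gave 0.24, with an adjusted p of 0.081, and 0.35 (adjusted p = 0.0183) without the shallow library.

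**Figure D1:**
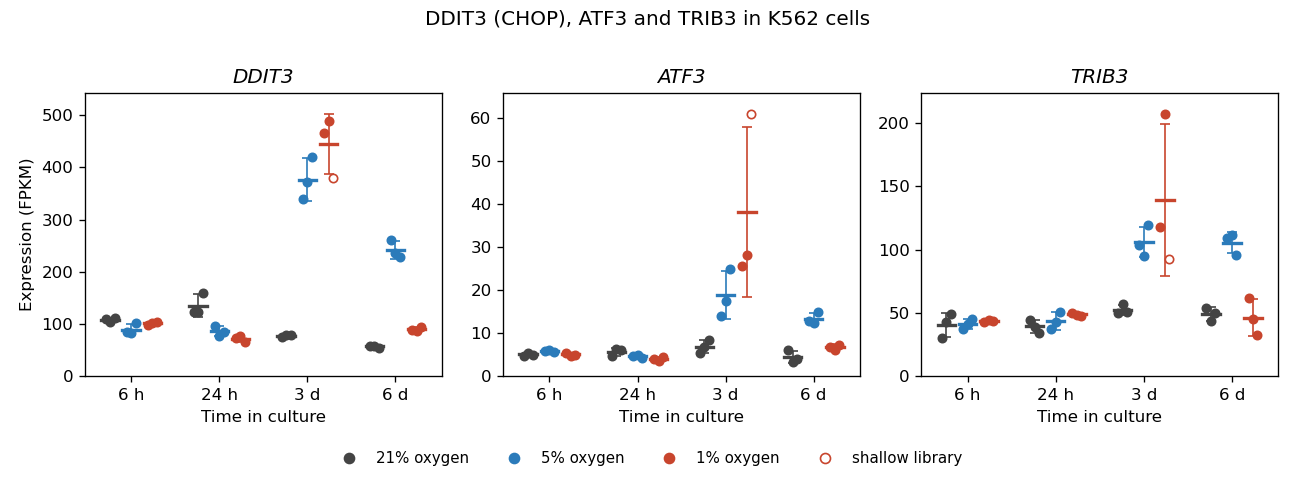
FPKM of DDIT3, ATF3 and TRIB3 in each library, by time (horizontal axis) and oxygen level (colour), with bars at the mean ± SD of 3 libraries and the shallow library as an open circle. All 3 genes are high at 3 d in 5% and 1% oxygen, and at 6 d in 5% oxygen.

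DDIT3 also fell below 21% oxygen at 24 h, before it rose. The libraries of 21% had a mean of 135 ± 21.6 FPKM at that time (SD, n = 3). The libraries of 5% held 96.4, 77.1 and 85.2 FPKM, and those of 1% held 73.4, 77.7 and 65.4 FPKM. No library of either low level reached the lowest library of 21%, and replicate 3 of 21%, at 160.2 FPKM, was the highest. The difference was -0.64 (SE 0.108, adjusted p = 0.00164) in 5% and -0.89 (SE 0.108, adjusted p = 4.65e-06) in 1%. The fall in 1% passed under each of the 8 other settings tried, and that in 5% was lost after rescaling to TPM and in the fit of the compared groups alone. At 6 h the mean was 109 ± 3.38 FPKM in 21%, 89.7 ± 10.3 in 5% and 102 ± 3.28 in 1% (SD, n = 3), and neither difference passed. Over the 12 groups the order of means ran from 445 FPKM (1%, 3 d) through 377 (5%, 3 d) and 241 (5%, 6 d) down to 57.8 (21%, 6 d). The first and second of these did not differ past the test with all libraries in.

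ATF3, a bZIP factor induced by many stresses that acts with and downstream of ATF4 and CHOP, was low in most groups. At 3 d it measured 5.47, 6.92 and 8.40 FPKM in 21% oxygen. In 5% it measured 14.1, 17.6 and 25.02 FPKM, and in 1% 25.6, 28.1 and 60.9 FPKM, the last in the shallow library. Every low-oxygen library was above every library of 21%. ATF3 differed from 21% by 1.31 (SE 0.225, adjusted p = 6.87e-05) in 5%, and 2.21 (SE 0.225, adjusted p = 7.23e-09) in 1%, or 1.83 without the shallow library. At 6 d ATF3 was 6.11, 3.36 and 4.06 FPKM in 21% and 12.8, 12.5 and 14.8 FPKM in 5%, a difference of 1.41 (SE 0.225, adjusted p = 4.1e-05). In 1% it had returned to 6.93, 6.19 and 7.41 FPKM, a difference of 0.54 from 21% with an adjusted p of 0.148, and 0.0126 without the shallow library. At 6 h and 24 h all group means of ATF3 lay between 4.11 and 5.94 FPKM, and no difference from 21% passed.

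TRIB3, the pseudokinase, followed the same course at a higher level. At 3 d it was 49.8, 57.2 and 51.0 FPKM in 21% oxygen and 104, 95.2 and 119 FPKM in 5%. In 1% it was 118, 207 and 92.4 FPKM, so the replicates of that group differed more than 2-fold and the shallow library was the lowest. The difference from 21% was 0.99 (SE 0.212, adjusted p = 0.000854) in 5% and 1.30 (SE 0.212, adjusted p = 1.33e-05) in 1%, where the fit of the compared groups alone did not pass. At 6 d TRIB3 was 53.8, 43.5 and 50.3 FPKM in 21% and 109, 111 and 95.8 FPKM in 5%, a difference of 1.09 (SE 0.212, adjusted p = 0.000488). In 1% it was 61.4, 44.9 and 32.5 FPKM, which spans the values of 21%, with a difference of -0.13 (95% interval -0.56 to 0.31). At 6 h and 24 h its group means lay between 39.4 and 48.8 FPKM with no difference past the test.

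At 6 d, then, the 3 genes were lower in 1% than in 5% oxygen, with no overlap of libraries in any of them. Overlap was absent in 7 of 10 members in this comparison. The share of all genes without overlap was not counted, so nothing about the members is read from that number. The differences were -0.87 for ATF3 (SE 0.225, adjusted p = 0.0121) and -1.21 for TRIB3 (SE 0.212, adjusted p = 0.000245), beside that of DDIT3 given above. They were the only members lower in that comparison, 3 of 10, where 3.9% of all genes were lower. Without the shallow library 3 of 10 members were lower (11.5% of genes) and 2 of 10, PSAT1 and PCK2, were higher (16.1% of genes). Leaving out replicate 3 of 5% oxygen or replicate 2 of 1% ended the call of ATF3, with an adjusted p of at most 0.0679. Within 1% oxygen, DDIT3 fell from 3 d to 6 d by 2.28, ATF3 by 2.22 and TRIB3 by 1.53, and ATF4 by 0.36, which made 4 of 10 members lower against 14.8% of genes. The count was 6 without the shallow library (20.9% of genes), where CEBPB and PHGDH joined, 8 after quantile normalization, 6 after rescaling to TPM and 2, DDIT3 and ATF3, in the fit of the compared groups alone. Within 5% oxygen over the same interval DDIT3 fell by 0.64, while ATF3 (-0.44) and TRIB3 (-0.00) did not pass. ATF3 passed there without the shallow library (adjusted p = 0.0474).

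ATF4, the hub of the pathway, was among the more abundant members, and its mRNA spanned a narrower range than that of DDIT3. Group means ran from 244 ± 4.01 FPKM (21%, 6 d) to 380 ± 75.0 FPKM (1%, 3 d; SD, n = 3), and to 421 ± 34.6 FPKM in the latter group without the shallow library. At 3 d the libraries held 333, 324 and 344 FPKM in 21%, 371, 352 and 325 in 5%, and 397, 446 and 299 in 1%, where the shallow library was the lowest. The difference of 1% from 21% was 0.17 (95% interval -0.04 to 0.38), and it was 0.33 (adjusted p = 0.00278) without the shallow library. At 6 d the libraries held 242, 248 and 241 FPKM in 21%, 300.3, 301 and 295 in 5%, and 286, 286 and 301 in 1%. Both low levels lay above all of 21% without passing the test, by 0.29 (adjusted p = 0.0576) and 0.26 (adjusted p = 0.129). Both passed in the limma fit without the shallow library, with adjusted p values of 0.0054 and 0.0176. That library is in none of these 6 d groups, so the differences stayed the same and only the estimated spread changed. At 24 h ATF4 was lower by -0.41 in 1% and -0.39 in 5%, a result that depended on the scale and is taken up with the enzymes.

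ATF5, a relative of ATF4 that is also under translational control and tied to mitochondrial stress, declined with time in 21% oxygen, from 11.0 ± 0.225 FPKM at 6 h to 8.16 ± 1.53 at 24 h, 5.19 ± 0.449 at 3 d and 3.78 ± 0.315 at 6 d (SD, n = 3). None of the 3 steps passed the test with all libraries in. At 3 d in 1% oxygen it was 5.38, 6.04 and 25.6 FPKM, the last in the shallow library. Its rise over 21% there (0.78, adjusted p = 0.0246) went to 0.12 (adjusted p = 0.476) without that library, and the call also ended without replicate 1 or 2 of 21%. At 6 d it was 4.09, 3.46 and 3.79 FPKM in 21% against 6.51, 5.97 and 6.50 FPKM in 1%, with no overlap. That difference, 0.62, had an adjusted p of 0.209 with all libraries and 0.000202 without the shallow one. CEBPB, the C/EBP partner of ATF4 and CHOP, was low throughout, with group means of 0.548 to 1.48 FPKM, and the shallow library listed it at 0. It passed in no comparison with all libraries in. With the shallow library left out it was higher than in 21% at 3 d in 1% (0.61) and 5% (0.40) and at 6 d in 5% (0.65).

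**Figure D2:**
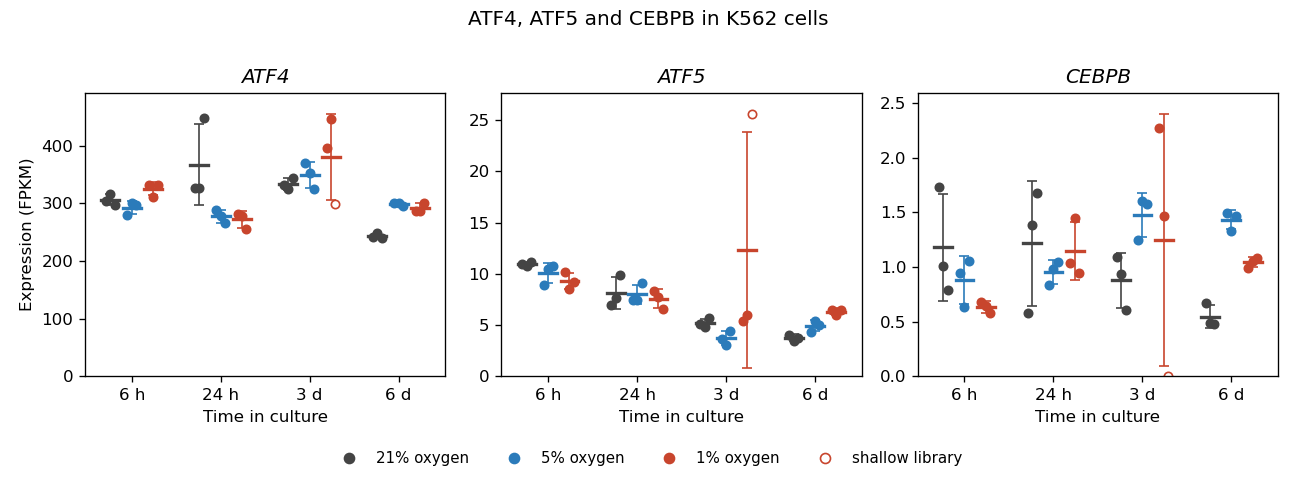
FPKM of ATF4, ATF5 and CEBPB in each library, by time (horizontal axis) and oxygen level (colour), with bars at the mean ± SD of 3 libraries and the shallow library as an open circle. The shallow library lies far from its group for ATF5 (25.6 FPKM) and at 0 for CEBPB.

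ASNS makes asparagine from aspartate and is a classical ATF4 target. At 3 d it was 283, 296 and 337 FPKM in 21% oxygen. It was 235, 237 and 236 FPKM in 5% and 194, 213 and 199 FPKM in 1%. The libraries of the 3 oxygen levels formed 3 separate bands, lower with less oxygen. From 24 h to 3 d the mean of ASNS did not drop in any level. It went from 264 to 305 FPKM in 21%, from 222 to 236 in 5% and from 194 to 202 in 1%. ASNS differed from 21% by -0.37 (SE 0.077, adjusted p = 0.000722) in 5% and -0.59 (SE 0.077, adjusted p = 5.27e-07) in 1%, and 1% was lower than 5% by -0.22 (adjusted p = 0.0282). This last step was lost without any 1 of 5 of the 6 libraries, with an adjusted p of up to 0.0682, and it turned to 0.03 and 0.10 after quantile normalization and rescaling to TPM.

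PSAT1 and PHGDH carry out successive steps of serine synthesis, PHGDH the first and PSAT1 the second. At 3 d PSAT1 was 214, 233 and 230.0 FPKM in 21% oxygen, 133, 138 and 155 in 5%, and 99.5, 123 and 121 in 1%. No low-oxygen library reached the libraries of 21%, and the 2 low levels did not overlap either, differing by -0.31 (adjusted p = 0.0136), a call lost without replicate 3 of 5% or replicate 1 of 1% and turned to 0.02 on the TPM scale. PSAT1 differed from 21% by -0.67 (SE 0.0925, adjusted p = 3.21e-06) in 5% and -0.98 (SE 0.0925, adjusted p = 1.87e-09) in 1%, with a ratio of mean FPKM of 0.507. At 6 d it was 152, 139 and 147 FPKM in 21% and 95.8, 108 and 102 in 5%, lower by -0.52 (SE 0.0925, adjusted p = 0.000179). In 1% it was 117, 118 and 130 FPKM, a difference of -0.27 with an adjusted p of 0.065, or 0.0244 without the shallow library. PSAT1 was thus the member whose lower level in 5% oxygen also passed at 6 d.

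PHGDH at 3 d was 151, 149 and 161 FPKM in 21% oxygen and 115, 117 and 122 in 5%. In 1% it was 85.4, 99.7 and 52.8 FPKM, the last in the shallow library. Both low levels lay below all of 21%, and 1% below 5%. The difference from 21% was -0.38 (SE 0.129, adjusted p = 0.0346) in 5%, a result lost when any of the 6 libraries compared was left out, with adjusted p values from 0.0587 to 0.117. In 1% it was -0.99 (SE 0.129, adjusted p = 4.53e-07), or -0.73 without the shallow library, and did not pass in the fit of the compared groups alone. At 6 d the means were 84.5 ± 3.73 FPKM in 21%, 79.1 ± 5.30 in 5% and 79.6 ± 2.15 in 1% (SD, n = 3), and no difference passed. PCK2, the mitochondrial phosphoenolpyruvate carboxykinase and another ATF4 target, did not share the lower level at 3 d. Its means then were 39.7 ± 2.41 FPKM in 21%, 41.8 ± 3.80 in 5% and 35.7 ± 4.88 in 1%, with differences of 0.07 (95% interval -0.17 to 0.30) and -0.16 (95% interval -0.39 to 0.08).

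**Figure D3:**
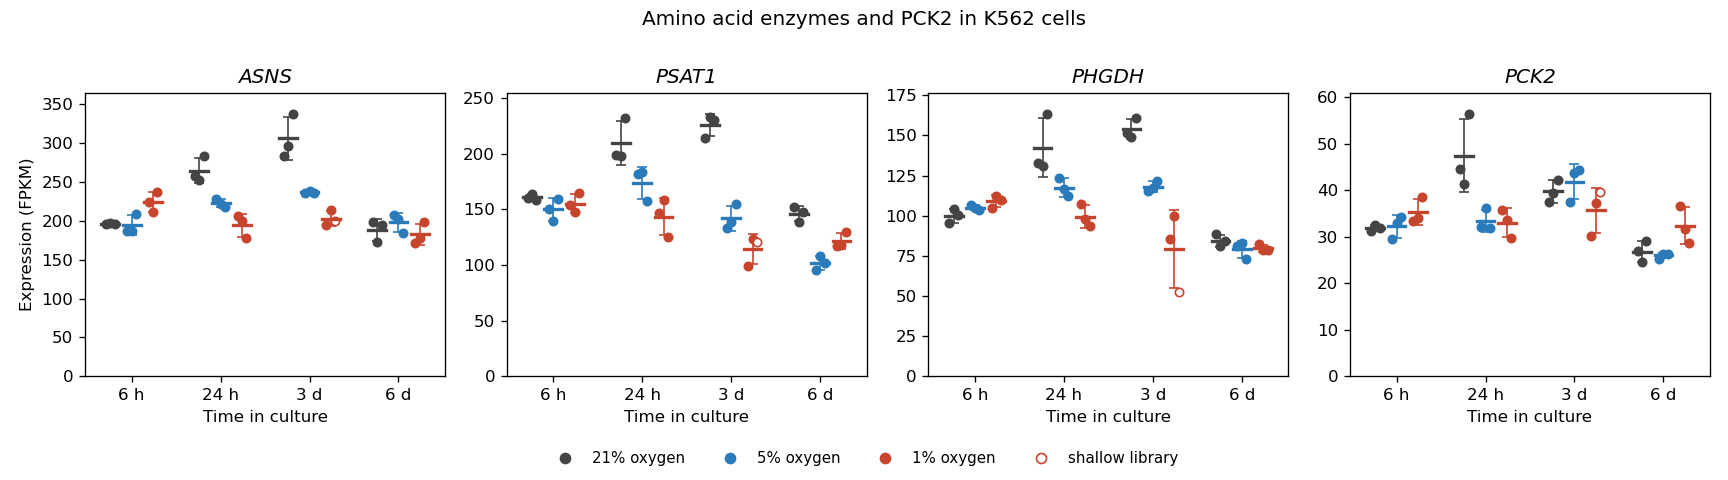
FPKM of ASNS, PSAT1, PHGDH and PCK2 in each library, by time (horizontal axis) and oxygen level (colour), with bars at the mean ± SD of 3 libraries and the shallow library as an open circle. In 21% oxygen ASNS, PSAT1 and PHGDH climb to 3 d and drop at 6 d, and at 3 d the low-oxygen libraries of these 3 genes lie below all libraries of 21%.

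Counted over the members, 4 of 10 were higher and 3 of 10 lower in 1% than in 21% oxygen at 3 d, while 16.9% of all genes were higher and 36.3% lower. The count of 4 includes ATF5. With the shallow library left out, 5 of 10 were higher (25.2% of genes), with ATF4 and CEBPB in place of ATF5, and 3 of 10 lower (28.5% of genes). The median difference over the members was 0.14, against -0.32 over all genes tested, and the latter was -0.01 without the shallow library. In 5% oxygen 3 of 10 were higher and 3 of 10 lower, against 8.25% and 13.6% of genes, and without the shallow library 4 and 4, against 15.7% and 29.2%. The shares of lower members are thus near the background in 1% oxygen. At 6 d, 1 of 10 was higher and 0 of 10 lower in 1%, against 5.84% and 5.04% of genes, or 4 and 1 without the shallow library, against 13.8% and 16%. In 5% at 6 d, 3 of 10 were higher and 1 of 10 lower, against 7.24% and 7.59% of genes, and without the shallow library 6 were higher, against 15.3%.

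Between the 2 low levels at 3 d, 2 of 10 members, ATF3 and ATF5, were higher in 1% than in 5%, and 3 of 10, the amino acid enzymes, were lower, against 13.4% and 23.2% of genes. Leaving the shallow library out, 5 were higher (16.6% of genes), namely ATF4, ATF3, ATF5, DDIT3 and TRIB3, and 2 lower (10.4% of genes), PSAT1 and PHGDH. At 6 h and 24 h 0 of 10 differed between 1% and 5% in the limma fit, against 0.0471% and 0.744% of genes. At an unadjusted limma p under 0.05 there were 1 and 3 members, a level at which the share of all genes was not counted. Averaged over the 4 times, 1% against 21% gave 3 of 10 higher (12.4% of genes) and 3 lower (19%), and 5% against 21% gave 3 higher (9.21%) and 2 lower (15%). The genes higher were DDIT3, ATF3 and TRIB3 in both. The comparisons with 21% share the 21% libraries.

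**Figure D4:**
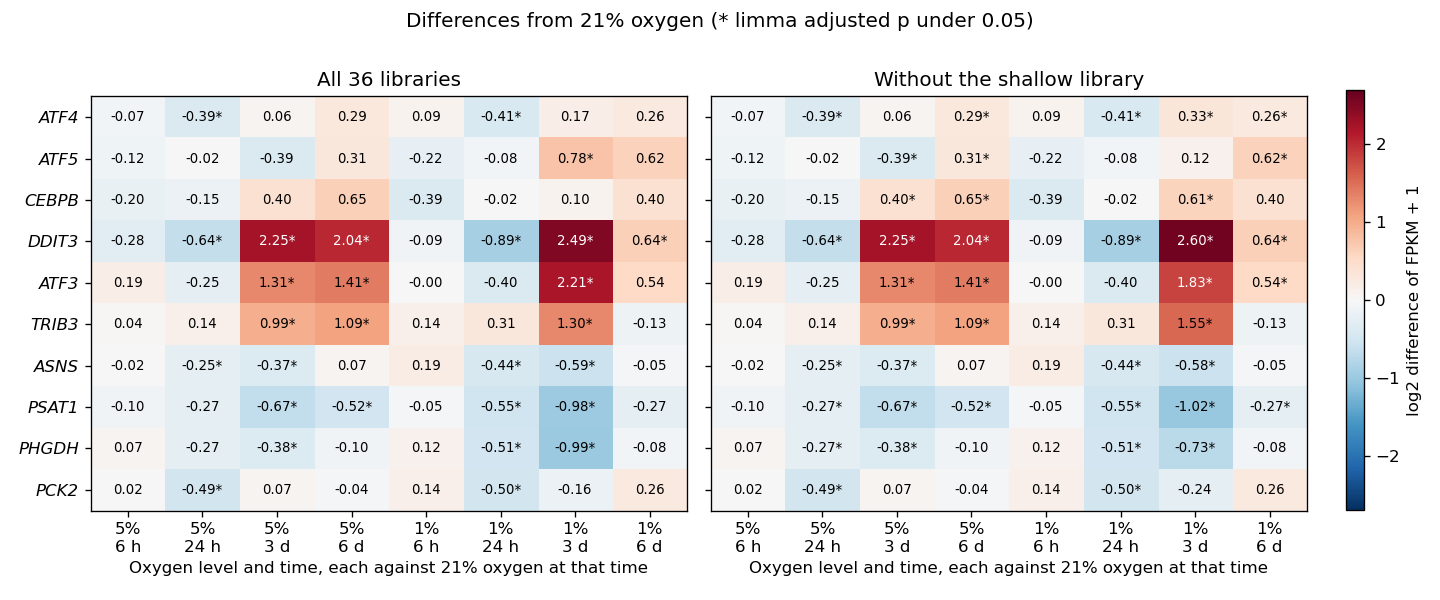
Heat map of the difference from 21% oxygen on the log2(FPKM + 1) scale for the 10 members (rows) in 5% and 1% oxygen at each time (columns), with all 36 libraries on the left and without the shallow library on the right. Red is higher and blue lower than 21%, each cell prints its value, and an asterisk marks a limma adjusted p under 0.05. At 3 d in both oxygen levels DDIT3, ATF3 and TRIB3 are red and ASNS, PSAT1 and PHGDH are blue.

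At 6 h, 0 of 10 members passed in the limma fit in 1% or in 5% oxygen, as did 0% of all genes in either comparison. At an unadjusted limma p under 0.05 there was 1 member in each, and the share of all genes at that level was not counted. Although 0 of 10 passed, the libraries of 1% and 21% did not overlap in 6 of 10 members at 6 h, so a lack of overlap alone says little. At 24 h the differences that passed were all toward lower values than in 21%. In 1% oxygen they were 6 of 10 (ATF4, DDIT3, ASNS, PSAT1, PHGDH and PCK2), against 9.66% of genes lower. In 5% they were 4 of 10 (ATF4, DDIT3, ASNS and PCK2), against 6.99%. Without the shallow library the count in 5% was 6 of 10, against 18.7%. PCK2, for example, was 44.4, 41.4 and 56.4 FPKM in 21% and 35.8, 33.5 and 29.7 in 1%, a difference of -0.50 (SE 0.114, adjusted p = 0.00334). ASNS was 258, 252 and 282 FPKM in 21% and 206, 199 and 178 in 1%, a difference of -0.44 (SE 0.077, adjusted p = 0.000455). In both genes replicate 3 of 21% was the highest library.

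The lower levels at 24 h rested in part on scale and on that library. Without replicate 3 of 21% oxygen, 3 of 10 members passed in 1% (DDIT3, ASNS and PSAT1) and 1 of 10 in 5% (DDIT3). In 5% oxygen, 2 of 10 passed without replicate 2 of 5% and 1 of 10 without its replicate 3. After rescaling to TPM, which moved the median over all genes from -0.00 to 0.39 in 1% and from -0.02 to 0.36 in 5%, 2 of 10 passed in 1%, DDIT3 lower and TRIB3 higher, and 0 of 10 in 5%. On that scale ATF4 was at 0.05 and ASNS at 0.02 in 1%, both below the moved median. After quantile normalization 2 of 10 passed in 1% and 1 of 10 in 5%.

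The enzymes also changed with time within 21% oxygen itself. How much of their differences from 21% this made up was not tested. From 3 d to 6 d, 6 of 10 members fell, where 0.301% of all genes were lower, 32 in number. The count was 7 of 10, ATF3 included, without the shallow library, against 3.09% of genes. ASNS went from 283, 296 and 337 FPKM to 198, 172 and 194 FPKM, a fall of 0.69 (SE 0.077, adjusted p = 1.51e-05). PHGDH fell by 0.86 (SE 0.129, adjusted p = 0.0011), from a mean of 154 to one of 84.5 FPKM, and PSAT1 by 0.62 (SE 0.0925, adjusted p = 0.0011). PCK2 fell by 0.55 (adjusted p = 0.0143), ATF4 by 0.45 (adjusted p = 0.0295) and DDIT3 by 0.43 (adjusted p = 0.0478). No library of 6 d reached the lowest library of 3 d in any of these 6 genes. Overlap was absent in 7 of 10 members. The share of all genes without overlap was not counted, so that number is not read as a trait of the members. ASNS, PSAT1 and PHGDH passed whichever of the 6 libraries was left out, whereas ATF4 and DDIT3 did not pass once any was left out, and PCK2 not without replicate 2 or 3 of 3 d or replicate 1 or 2 of 6 d. The counts of members lower then were 3 or 4. The median over the members was -0.50 and that over all genes -0.00.

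In 5% oxygen 5 of 10 members fell from 3 d to 6 d, against 2.41% of genes lower: DDIT3, ASNS, PSAT1, PHGDH and PCK2, with differences from -0.26 (ASNS) to -0.66 (PCK2). ATF4 and ATF3 fell too without the shallow library, which made 7 of 10 (8.91% of genes), and ATF5 rose (16% of genes). After rescaling to TPM 3 of 10 fell, DDIT3, PHGDH and PCK2. The fall of ASNS did not pass when any of the 6 libraries compared was left out. Between 24 h and 3 d in 5%, 5 of 10 rose (12.2% of genes), namely ATF4, ATF3, DDIT3, TRIB3 and PCK2, and 2 of 10 fell (13.7%), ATF5 and PSAT1. Of these 7 calls those of ATF3, DDIT3 and TRIB3 held whichever library was left out, and the other 4 were each lost without any of 2 to 4 of the 6 libraries. In 1% over that interval 4 of 10 rose, ATF4, ATF3, DDIT3 and TRIB3 (16.2% of genes), and 2 of 10 fell, PSAT1 and PHGDH (34.8%). The same 4 rose without the shallow library (23.5% of genes) and 2 fell (25.3%), ATF5 in place of PHGDH. The counts were 6 higher and 0 lower after quantile normalization, 4 and 1 after rescaling to TPM, and 2 and 0 in the compared groups alone, so that the fall of PSAT1 was lost in all 3. In 21% oxygen DDIT3 fell between 24 h and 3 d by 0.78 (adjusted p = 2.33e-05), the 1 call among the 10 members with all libraries in, where 5.04% of genes were lower. With the shallow library left out, ATF5 was lower too (14.6% of genes) and ASNS higher (15% of genes). On other scales more members were higher, 2 (ASNS and PSAT1) after quantile normalization and 5 (ATF4, TRIB3, ASNS, PSAT1 and PHGDH) after rescaling to TPM, and DDIT3 stayed lower on both. Between 6 h and 24 h, 2 of 10, ASNS and PCK2, rose in 21% (0.0471% of genes), 4 of 10 without the shallow library (1.81% of genes), and 0 of 10 after quantile normalization, after rescaling to TPM and in the compared groups alone. Of the 2, ASNS was lost without replicate 2 or 3 of 6 h or replicate 3 of 24 h, and PCK2 without any replicate of 6 h or replicate 3 of 24 h. In that interval DDIT3 alone fell in 1% (1.96% of genes), which was lost without replicate 3 of 6 h or replicate 3 of 24 h. In 5% over that interval 0 of 10 passed in the limma fit (0.141% of genes). At an unadjusted limma p under 0.05 there were 2 members, and the share of all genes at that level was not counted.

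Whether the difference from 21% varied over the 4 times was tested by a moderated F test in limma. It passed for 8 of 10 members in 1% oxygen, all but ATF5 and CEBPB, and 40.3% of all genes passed. With the shallow library left out it passed for 10 of 10, ATF5 (adjusted p = 0.000625) and CEBPB (adjusted p = 0.00349) included, against 63.3% of genes. In 5% oxygen it passed for 6 of 10, against 14.5% of genes, and PHGDH, PCK2, ATF5 and CEBPB were the members that did not. Those 4 passed too without the shallow library, with adjusted p values of 0.00523, 0.012, 0.00996 and 0.00714, which made 10 of 10 against 41.9% of genes. DDIT3 had the smallest adjusted p of the members in both, 1.56e-14 and 5.6e-15.

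The genes around the members were taken from lists chosen for their role, and each list is described by its counts with no test of the list. The shares of all genes higher and lower in 1% at 3 d were those given above, 16.9% and 36.3%, or 25.2% and 28.5% without the shallow library, and in 5% 8.25% and 13.6%, or 15.7% and 29.2%. At 6 d they were 5.84% and 5.04% in 1% and 7.24% and 7.59% in 5%. Without the shallow library those of 6 d were 13.8% and 16% in 1% and 15.3% and 21.6% in 5%. Counts on other scales, a check added after the data were seen, are given where they changed the picture. Unless stated, counts and differences of list genes are with all libraries in. Those in 1% at 3 d therefore include the shallow library. Among the 13 genes for the eIF2α kinases, the phosphatase subunits and eIF2B, 1 rose and 9 fell in 1% oxygen at 3 d. The riser was PPP1R15A (GADD34), the inducible subunit that returns eIF2α to its unphosphorylated state, by 1.56 in 1% and by 1.57 in 5%. It was still higher at 6 d, by 1.11 in 1% and 1.57 in 5%. The eIF2B subunits EIF2B3 and EIF2B4, part of the exchange factor that eIF2α phosphorylation inhibits, were lower in 1% at 3 d by -1.35 and -0.83, and EIF2S1, eIF2α itself, by -0.68. The list's median was -0.83, and -0.40 without the shallow library, against -0.32 and -0.01 over all genes.

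Of 21 bZIP partners, 15 were tested. In 1% oxygen at 3 d 7 of the 15 rose and 0 fell, and without the shallow library 10 rose. FOS rose by 2.58, JUN by 3.10, NFE2L2 (NRF2, the antioxidant regulator) by 0.97 and CEBPG, a known ATF4 partner, by 0.97. In 5% 4 of 15 rose and 0 fell, or 5 and 2 without the shallow library. At 6 d FOS, JUN and NFE2L2, picked after their values were seen, were lower in 1% than in 5%, by -1.48, -1.91 and -1.10. The rest of this list is not described in that comparison. Of 15 other ATF4 stress targets, PPP1R15A and CEBPG again among them, 10 were tested, and in 1% at 3 d 6 rose and 2 fell. DDIT4, an inhibitor of mTORC1 that hypoxia also induces, rose by 2.07, and ERO1L, an oxidase of the endoplasmic reticulum, by 2.49, while EIF4EBP1, a repressor of translation, fell by 1.84. CHAC1, which degrades glutathione and is a target of ATF4 and CHOP, was at -0.99 in 1% and 0.59 in 5% without passing in either, and without the shallow library at 0.57 and 0.59, higher in both.

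Genes of amino acid supply split. Of 8 further genes of serine, glycine and one-carbon metabolism tested, 1 rose and 5 fell in 1% oxygen at 3 d, and 0 rose and 4 fell in 5%. MTHFD1, a folate enzyme of the cytosol, fell by 1.53 in 1% and by 0.91 in 5%, and SHMT1 by 1.22 and 0.73. Among 13 genes of other nonessential amino acid synthesis, 2 rose and 6 fell in 1%, or 5 and 6 after quantile normalization: GLUL, which makes glutamine, rose by 0.57 and CTH, which makes cysteine, by 0.71, while GOT2 fell by 1.21 and CBS by 0.81. Of 10 amino acid transporters 1 rose and 3 fell, or 3 and 3 without the shallow library. One riser in both oxygen levels was SLC38A2, a transporter known to be induced by amino acid shortage, by 1.66 in 1% and 1.17 in 5%, and SLC7A5, a leucine transporter, fell by 0.56 and 0.79. PC, pyruvate carboxylase, which supplies the substrate of PCK2, fell by 0.87 in 1%.

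Of 20 cytosolic aminoacyl-tRNA synthetases, many of them ATF4 targets, 1 rose and 16 fell in 1% oxygen at 3 d, and 2 rose and 7 fell in 5%, or 3 and 12 without the shallow library. MARS fell by 0.78 and 0.41, FARSB by 0.92 and 0.67, and DARS rose by 0.81 and 0.59. The fall in 1% at 3 d was counted in 7 of 20 after quantile normalization and 9 of 20 after rescaling to TPM, with 3 higher in each. Without the shallow library 14 fell in 1%, and the list's median was -0.34, against -0.01 over all genes. At 24 h in 1%, 9 of the 20 were lower and 0 higher, or 14 and 0 without the shallow library, with SARS at -0.47 and MARS at -0.37, against 9.66% and 22% of genes lower. This direction did not hold across scales: 0 were lower and 3 higher after quantile normalization, and 0 and 5 after rescaling to TPM, and 6 were lower without replicate 3 of 21%. From 3 d to 6 d in 21% oxygen 4 of the 20 fell (MARS, AARS, SARS and WARS), where 0.301% of all genes were lower. SLC7A5 (-0.42), SHMT2 (-0.46) and CTH (-0.62) fell too, beside the 6 members.

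Of 15 endoplasmic reticulum stress genes, 5 rose and 2 fell in 1% oxygen at 3 d, and 6 rose and 0 fell in 5%, or 8 and 1 in each without the shallow library. HSPA5 (BiP), the chaperone whose loss from stress sensors starts the response, rose by 1.18 and 1.28, HERPUD1 by 1.34 and 1.27, and HSP90B1 by 0.56 and 0.83. In 5% oxygen at 6 d 3 of the 15 were higher than in 21% and 0 lower (6 and 1 without the shallow library), with HERPUD1 at 0.83 and HSPA5 at 0.69. In 1% 0 were higher and 3 lower (0 and 6 without that library), with HSPA5 at -0.33, SDF2L1 at -0.87 and MANF at -0.94, although DDIT3 was still above 21%. In 1% against 5% at 6 d, 0 were higher and 5 lower, against 4.72% and 3.9% of genes. The list median was -0.44, against 0.03 over all genes. Without the shallow library 8 were lower, against 11.5% of genes.

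**Figure D5:**
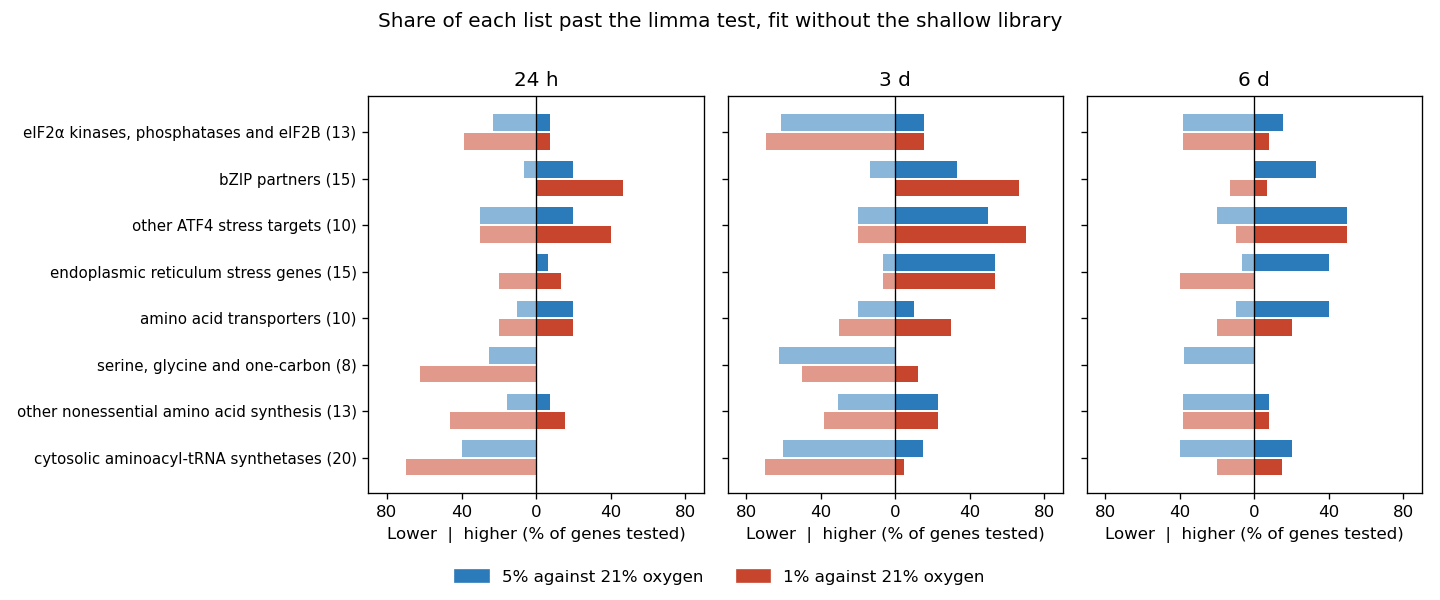
Share of the tested genes of each list (horizontal axis, %, with the number tested in brackets) that passed the test as higher (full colour, to the right) or lower (pale, to the left), in 5% (blue) and 1% (red) against 21% oxygen at 24 h, 3 d and 6 d, in the fit without the shallow library. At 3 d, the bZIP partners and endoplasmic reticulum stress genes were mostly higher where they passed, and the aminoacyl-tRNA synthetases mostly lower.

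Other features moved with these results at 3 d and 6 d, and their part in them was not tested. The summed level of 8 nuclear-retained RNAs, which can mark damaged or nuclear-rich RNA, was 193 to 228 FPKM in 21% oxygen, 239 to 359 FPKM in 5% and 668 to 810 FPKM in 1%. Of the 7 tested, 6 rose in 1% and 1 fell, with a list median of 1.68, or 1.55 without the shallow library. At 6 d the sum was 222 to 260.0 FPKM in 21%, 360.4 to 470.3 in 5% and 272 to 313 in 1%. Of 5 epithelial markers 4 averaged above 1 FPKM in every group, and their sum was 1092 to 1152 FPKM in 21%, 5452 to 5960 in 5% and 5787 to 8710 in 1% at 3 d, and 1007 to 1093, 5676 to 6036 and 2008 to 2091 FPKM at 6 d. KRT8, KRT18 and KRT19, epithelial keratins, were higher in 1% at 3 d, by 3.23, 2.66 and 2.00, while EPCAM was lower by -1.22. At 6 h in 21% the sum was 912 to 1003 FPKM. Lymphoid markers, 1 or 2 of 6 above 1 FPKM in a group, summed to 94.1 to 106 FPKM in 21%, 297 to 443 in 5% and 227 to 325 in 1% at 3 d. Myeloid markers, 1 of 6 above 1 FPKM, summed to 26.4 to 29.8, 30.2 to 38.3 and 29.4 to 60.3 FPKM, with S100A8 at 0 in 5% and 1%. Stromal markers, at most 2 of 5 above 1 FPKM, summed to 4.94 to 5.69, 10.3 to 13.6 and 9.81 to 12.1 FPKM. The sum of the erythroid markers at 3 d was 5653 to 6341 FPKM in 21%, 10443 to 12400 in 5% and 9112 to 12210 in 1%. At 6 d it was 5174 to 5541 FPKM in 21%, 22130 to 23629 in 5% and 36776 to 44073 in 1%, where the levels of the CHOP branch in 1% and 5% had parted.

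Over the 12 group means, some members followed each other closely, given as Pearson correlations of log2 values that share libraries and scaling. DDIT3, ATF3 and TRIB3 correlated with each other at 0.87 to 0.94. ASNS, PSAT1 and PHGDH correlated with each other at 0.77 to 0.92. Across these 6 genes, DDIT3 and ASNS gave 0.05, and TRIB3 and PSAT1 gave -0.61. ATF4 gave 0.71 with DDIT3, 0.56 with ASNS and 0.75 with PCK2. PCK2 gave 0.62 to 0.76 with the 3 amino acid enzymes. CEBPB gave 0.61 with DDIT3, or 0.85 without the shallow library. ATF5 gave -0.36 to 0.22 with the other members. Without the shallow library the range was -0.60 (TRIB3) to 0.27 (PSAT1), with ATF3 at -0.50 and DDIT3 at -0.33.

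Among 8407 other genes that reached at least 5 FPKM in a group, those most like each member by this measure were named. For DDIT3 they were CTSL1, a lysosomal protease (0.96), SQSTM1, the autophagy receptor p62 (0.96), and NRBP1 (0.94). For ATF3 they were KLF6 (0.98), YPEL4 (0.98) and SH3GLB1 (0.97), and for TRIB3 NUMB (0.99), ASPH (0.99) and CCRL2 (0.98). MARS, the methionyl-tRNA synthetase, was first for both PSAT1 (0.96) and PHGDH (0.94, and 0.88 without the shallow library). SARS, the seryl-tRNA synthetase, was second for ASNS (0.87), after GPKOW (0.89). For ATF4 the first was TAF12 (0.88) and for PCK2 VPS28 (0.93). For ATF5 C1orf74 (0.92) came first and for CEBPB C6orf99 (0.84). Rank 1 without the shallow library held for TAF12, NUMB, VPS28 and, with PSAT1, MARS, while KLF6 was number 2, GPKOW 3, CTSL1 4, MARS with PHGDH 4, C1orf74 10 and C6orf99 68. Of the others named, SARS became number 1, ASPH was 2, SQSTM1 3, CCRL2 4, NRBP1 5, SH3GLB1 20 and YPEL4 41. With all libraries in, the Spearman correlation with ATF3 was 0.52 for YPEL4 and 0.59 for SH3GLB1.

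The gene values equal the sum of the transcripts listed for each gene. ATF4 came at over 99% from 1 of its 2 listed transcripts in every group. The leading transcript of DDIT3 held 49.7% to 66.6% of its level in the group means without the shallow library, and that of ASNS 73.7% to 79.8%. In the shallow library the leading transcript of DDIT3 held 0.0267%, so the division among transcripts was not read further there.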

How the data were processed

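RNA of K562 cells was extracted with a column kit and made into 36 polyA-selected Smart-seq2 libraries, per the labels' protocols. The FPKM values, per gene and per transcript, were made by the authors with TopHat, Cufflinks and Cuffnorm, per the submitters' processing notes. Their versions, like the build and the gene models, are not given there. Depth is unknown, so precision rests on the 3 libraries per group.

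Log2(FPKM + 1) was modelled in limma 3.58.1 under R 4.3.3, 1 coefficient per oxygen and time group, with a trended variance, over the 10625 genes with a mean of at least 1 FPKM. P-values were adjusted by Benjamini-Hochberg over all of them, and 0.05 was the threshold. Means and SDs are of FPKM. Plots used matplotlib 3.10.9. On simulated data (200 genes changed in each of 3 runs, 1% against 21% oxygen at 3 d, 10625 genes) 26.8% of genes changed 1.5-fold were recovered, then 55.3% at 2-fold and 87.3% at 4-fold, and 5.31% of calls were false. The simulation gave a gene the same spread in every library and held no shallow library. These rates may therefore not carry over to the real comparison.

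The members are all named. From each list up to 4 genes with the smallest adjusted p in a comparison were named, and repeats of a gene in another comparison, CHAC1, EPCAM and the keratins were added after their values were seen. Genes like a member were the 3 with the highest Pearson correlation over group means. The members and lists were chosen with earlier results of these data known. Alternatives were another pseudocount, filters of none and of 5 FPKM, the compared groups alone, quantile normalization, rescaling to TPM, a replicate block and leaving out each library.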

Additional observations from a re-analysis of the deposited data

Results flagged for a closer look

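The difference between low and 21% oxygen was tested for variation over the 4 times by the moderated F test of limma. It varied for 8 of the members in 1% oxygen and 6 in 5%, against 40.3% and 14.5% of all genes. Without the shallow library it varied for 10 of 10 in both, against 63.3% and 41.9% of all genes. In 1% oxygen the adjusted p was 1.56e-14 for DDIT3, 1.36e-06 for ATF3, 0.00213 for TRIB3 and 0.00253 for ATF4. For the enzymes it was 6.22e-06 for ASNS, 1.85e-05 for PSAT1, 9.43e-05 for PHGDH and 0.00197 for PCK2. In 5% oxygen it was 5.6e-15 for DDIT3, 0.000399 for ATF3, 0.015 for TRIB3, 0.00996 for ATF4, 0.0145 for ASNS and 0.0105 for PSAT1. The direction of the difference turned between 24 h and 3 d for DDIT3, below 21% at 24 h and above it at 3 d, and each of these differences passed the test in both oxygen levels.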

How the results depend on the processing

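Over the 4 times and their average, 20 member differences passed for 1% against 21% oxygen (17 to 25 under the other settings), 19 for 5% against 21% (15 to 27) and 9 for 1% against 5%, and 32 passed between consecutive times (27 to 43). For 1% against 5% the count was 5 with only the compared groups fitted and 14 without the shallow library. Leaving out a library gave 17 to 21, 16 to 20, 7 to 12 and 27 to 34. Under quantile normalization the sign turned for ATF4 in 5% against 21% at 24 h (0.00516) and averaged (0.136), ASNS in 5% against 21% at 24 h (0.102) and averaged (0.0211), ASNS in 1% against 5% at 3 d (0.0289), and for PSAT1 (-0.298) and PHGDH (-0.248) from 3 d to 6 d in 1%. On the TPM scale it turned for ATF4 (0.0461) and ASNS (0.0173) in 1% at 24 h, ATF4 (0.0669) and ASNS (0.209) in 5% at 24 h, ASNS in 5% averaged (0.00485), ASNS (0.105) and PSAT1 (0.0151) in 1% against 5% at 3 d, and ATF4 from 24 h to 3 d in 21% (0.257). Without the shallow library it turned for ATF5 from 24 h to 3 d in 1% (-0.354, where leaving out single libraries gave up to 0.676), CEBPB (-0.475, up to 0.381) and PHGDH (-0.21, up to 0.243), both from 3 d to 6 d in 1%. The cause was not tested. With a replicate block the counts were 20, 19, 9 and 31, and the fall of DDIT3 from 3 d to 6 d in 21% was lost. Of 198 same-numbered pairs of libraries 22 had deviations correlated over 0.1, and 12 of 36 libraries correlated best with their own number, so the numbers do not pair the libraries. The files hold no counts, so the limit that depth sets is unknown.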
